A study of Rattus norvegicus with 24 samples.

Results

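Interferon-stimulated genes were followed in cultured neonatal rat ventricular myocytes given the anthracycline doxorubicin, mimics of 2 cardiac microRNAs, or both. The set is a fixed list of 36 genes, and its members are those with a row in the gene-level count table. Of the 36, 35 had a row, out of 21767 gene symbols, and Ddx60 was not analysed here. After a filter on low counts 33 were tested, among 14303 genes tested in all. Oas2 reached at most 10 counts and Zbp1 at most 2 counts in any library, and neither passed that filter. The members fall into 4 transcription factors, 5 nucleic acid sensors, 12 antiviral effectors, 3 guanylate-binding proteins, 6 genes of ubiquitin-like and ADP-ribose modification, and 6 genes of antigen presentation and other roles.

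The myocytes came from Sprague-Dawley rats, and their polyA RNA gave 24 sequencing libraries, 3 in each of 8 groups. These groups were doxorubicin with the miR-222-3p mimic, with the miR-455-3p mimic, with both mimics and with a negative control mimic, and the same 4 transfections without doxorubicin. Every group, controls included, was transfected by Lipofectamine RNAiMax, with 5 nM of each mimic, and treated 48 h later for 24 h. The dose is given as 4 uM in the sample protocol and in millimolar in the series text, and the files do not settle which is right. The labels name no animals, cultures or days behind the replicates, so each p-value reflects only how far these libraries spread, which may be technical. These are bulk libraries, in which fewer cells of a type and less RNA per cell cannot be told apart.

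As background, interferons are secreted when a cell detects foreign or misplaced nucleic acid, and they act on neighbouring cells through receptors that switch on the transcription factors, STAT2 and IRF9 among them. These bind the interferon-stimulated response element (ISRE) in front of many genes whose products block virus entry, replication and release, mark proteins with ISG15, or load antigen onto MHC class I. In the heart the same genes are known to respond to viral infection and to injury. Mature microRNAs pair with messenger RNAs mainly through their seed, bases 2 to 8.

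The mimicked microRNAs have unlike seeds, shown in capitals. The sequences are from RefSeq (build GRCr8), with miR-222-3p at chrX:6022682-6022702 and miR-455-3p at chr5:81704881-81704902, both on the plus strand.
rno-miR-222-3p: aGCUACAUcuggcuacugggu
rno-miR-455-3p: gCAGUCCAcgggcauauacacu

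Promoters are shown for 4 members that the results below turn on. Irf7 is the member called lower under doxorubicin when a miR-222 mimic was present, Rsad2 the one with the highest fitted fold after the miR-222 mimic, Bst2 the one called after every mimic, and Gbp2 one of those called under doxorubicin with every transfection. Each is the RefSeq window (GRCr8) of 250 bases before to 50 bases after the annotated start, read in the gene's own direction. Capitals mark the ISRE core, searched as GAAANNGAAA on both strands. The windows are chr1:205799974-205800273 (minus strand) for Irf7, chr6:48788071-48788370 (minus) for Rsad2, chr16:18254918-18255217 (minus) for Bst2 and chr2:234005477-234005776 (plus) for Gbp2.
Irf7: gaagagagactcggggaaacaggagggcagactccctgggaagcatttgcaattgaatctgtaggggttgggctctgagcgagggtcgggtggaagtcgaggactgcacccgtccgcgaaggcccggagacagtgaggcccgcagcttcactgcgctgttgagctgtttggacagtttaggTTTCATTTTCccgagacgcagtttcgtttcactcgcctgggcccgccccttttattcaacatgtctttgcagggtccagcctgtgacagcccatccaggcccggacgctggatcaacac
Rsad2: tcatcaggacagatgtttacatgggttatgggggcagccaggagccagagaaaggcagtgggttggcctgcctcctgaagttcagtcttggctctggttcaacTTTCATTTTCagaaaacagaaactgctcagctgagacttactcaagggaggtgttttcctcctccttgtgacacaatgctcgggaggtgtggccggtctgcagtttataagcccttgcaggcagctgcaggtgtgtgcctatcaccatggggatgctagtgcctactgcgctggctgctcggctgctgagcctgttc
Bst2: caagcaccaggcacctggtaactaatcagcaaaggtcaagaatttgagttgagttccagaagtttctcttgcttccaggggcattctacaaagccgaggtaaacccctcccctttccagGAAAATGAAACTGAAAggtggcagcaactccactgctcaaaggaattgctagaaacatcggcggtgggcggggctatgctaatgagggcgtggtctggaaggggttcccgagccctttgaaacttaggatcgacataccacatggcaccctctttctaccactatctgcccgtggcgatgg
Gbp2: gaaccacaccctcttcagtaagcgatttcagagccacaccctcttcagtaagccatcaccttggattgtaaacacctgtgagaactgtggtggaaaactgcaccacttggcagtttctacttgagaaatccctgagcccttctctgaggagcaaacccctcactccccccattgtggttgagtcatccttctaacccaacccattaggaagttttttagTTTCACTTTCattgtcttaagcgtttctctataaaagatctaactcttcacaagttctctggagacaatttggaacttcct

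The core began 69 bases before the start in Irf7, 147 in Rsad2 and 31 in Gbp2, each on the opposite strand. In Bst2 a pair of overlapping cores began 131 and 125 bases before the start, and 1 of them overlapped a match to the gamma-activated site. Of the 36 listed genes 28 had a promoter entry, Ddx60 among them, and 19 of these 28 (67.9%) held the ISRE core, against 1034 of 27457 promoters of the same length (3.77%). The promoters shown were picked by results. Windows without the core were those of Cmpk2, Irf1, Irf9, Mx1, Oasl, Parp9, Samhd1, Stat2 and Trim25. All of these except Samhd1 were called in some comparison below. The gamma-activated site, searched as TTCNNNGAA, was in 7 of 28 (25.0%), against 8.68% of all such promoters. Members lie close together in places: Gbp5, Gbp4 and Gbp2 follow each other on chromosome 2, Rsad2 and Cmpk2 on chromosome 6, and Parp9, Dtx3l and Parp14 on chromosome 11, where the promoter windows of Parp9 and Dtx3l are 713 bases apart on opposite strands. A match describes letters, not binding. Dhx58, Ifit2, Isg15, Mx2, Oas2, Rtp4, Usp18 and Zbp1 had no entry.

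**Figure D1:**
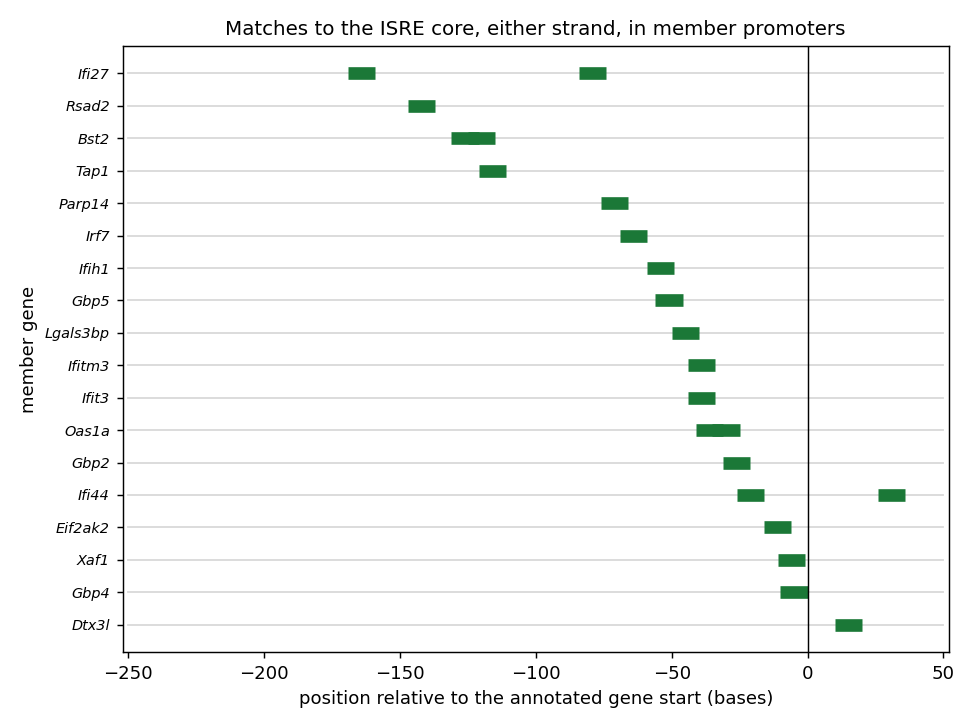
Position of each match to the ISRE core in the promoter windows of 18 members in the count table, in bases relative to the annotated gene start (0). Each row is a gene and each green block a match on either strand; 2 matches lie after the start and the others before it.

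Libraries held 17311949 to 25750309 counts, with 11469 to 13524 genes at 10 or more counts and 5.54% to 38.2% of counts from mitochondrial transcripts. Replicates were not equally distant. A chi-square per degree of freedom comparing a pair of replicate libraries was 5.79 for libraries 1 and 2 of the miR-222 mimic without doxorubicin, 7.80 for libraries 1 and 2 of both mimics without doxorubicin, 6.98 for libraries 1 and 3 of the miR-455 mimic without doxorubicin, and 7.81 to 9.80 among the 3 libraries of the miR-455 mimic with doxorubicin. All other pairs lay between 51.4 and 575. None of the near-alike pairs agreed within sampling noise, but that does not show that they are independent replicates. The main fits kept all of them as separate libraries and treated them as separate replicates. The counts over the whole set are also given with the near-alike libraries summed into 1 (19 libraries in all, an alternative chosen after seeing the data). In that fit the summed miR-455 group with doxorubicin is a lone library assumed to vary like the others. Cardiomyocyte markers, 8 of 9 listed in the table, had summed levels of 17500 to 64330 CPM, the counts of a gene scaled to a common library size adjusted by the trimmed mean of M-values. The adjusting factor was 0.572 to 1.008 in libraries with doxorubicin and 1.041 to 1.366 in those without. Small differences with doxorubicin therefore lean on this scaling. Fibroblast markers, 7 of 8 listed, summed to 14780 to 52850 CPM, a range that overlaps that of the cardiomyocyte list. Smooth muscle and pericyte markers summed to 1080 to 4441 CPM, macrophage and leukocyte markers to 11.7 to 29.1 CPM (14 of 15 listed in the table), and endothelial markers to 11.5 to 67.0 CPM. Cldn5 was at 0 in all 8 groups and Adgre1 in 4 groups.

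Doxorubicin was followed by higher levels of many members in control-mimic cells. With the control mimic, 23 of 33 members were called higher and 0 lower (edgeR quasi-likelihood test, Benjamini-Hochberg adjusted p under 0.05), where 15.2% of all 14303 genes were called higher and 12.3% lower. The median member log2 fold change was 2.42, against 0.02 over all genes tested. A fit of only these 2 groups called 14 of 32 higher and 0 lower. The share of all genes called was not taken in such fits, by DESeq2 or when leaving out libraries, here and below. Their counts therefore cannot be set against a background. The 3 libraries of each group did not overlap for 24 of 33 members, against 33.5% of all genes tested. After doxorubicin with the miR-455 mimic, 26 of 33 were called higher and 0 lower (background 9.02% higher and 9.11% lower), with a median of 2.62, and the groups did not overlap for 30 (53.8% of all genes). The comparisons share no library, and 19 genes were called with both the control mimic and the miR-455 mimic. With 23 and 26 of 33 members called, most of the 23 had to be shared. This overlap therefore tells little about the members. With the miR-222 mimic present doxorubicin called 4 higher and 0 lower (background 7.76% and 6.87%), with a median of 0.88, and with both mimics 4 higher and 0 lower (background 7.85% and 7.24%), with a median of 0.78. The 4 were Irf7, Gbp2, Lgals3bp and Ifitm3 each time. The groups did not overlap for 17 members with miR-222 and 7 with both, near the 49.3% and 24.6% of all genes. A fit of only the groups compared called 10 higher and 1 lower with miR-222, and 0 with both (edgeR; before adjustment, 4 passed as higher and 1 as lower at p under 0.05, and DESeq2 on all libraries called 6 higher and 1 lower).

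Each mimic was also set against the control mimic without doxorubicin, and the mimics were not tested against each other there. The miR-222 mimic against the control mimic called 13 members higher and 1 lower (background 4.50% and 4.47%; median 1.24, all genes 0.06). Both mimics together called 9 higher and 1 lower (background 3.67% and 3.39%; median 0.97, all genes 0.07). The 9 were all among the 13, although both comparisons share the control libraries. The miR-455 mimic alone called 1 higher, Bst2, and 0 lower (background 2.47% and 2.25%), and its member median was -0.33, against 0.06 over all genes. A fit of only the groups compared called 3 higher for miR-222, 0 for miR-455 and 0 for the combination (edgeR; before adjustment, 1 passed as higher and 2 as lower for miR-455, and 11 as higher and 1 as lower for the combination).

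Counts were lower with the near-alike libraries summed, a fit with fewer libraries and 1 group of a single library. Doxorubicin called 1 member with the miR-222 mimic (all 14303 genes: 306 higher, 302 lower) and 1 with both mimics (316 and 285). These lay near the share of all genes. It called 18 with the control mimic (1379 and 1274), whose own libraries were not summed. With the miR-455 mimic the doxorubicin group was a lone library, and its fold changes follow. The mimics alone called 1 for miR-222 (Rsad2), 0 for miR-455 and 2 for both (Rsad2 and Gbp5). For miR-455, 2 passed as higher and 2 as lower before adjustment (edgeR). Over all genes these comparisons called 24 higher and 33 lower, 2 and 0, and 30 and 25. The lost calls kept their direction: over the 23 lost for doxorubicin with miR-455 the median log2 fold change was 2.70 summed and 2.99 unsummed, and over the 13 lost for miR-222 alone 2.21 summed and 2.38 unsummed. Irf7 was called in all 4 doxorubicin comparisons of that fit. By role, doxorubicin with the control mimic then called 1 of 4 transcription factors, 2 of 3 sensors, 7 of 11 effectors, 2 of 3 guanylate-binding proteins, 3 of 6 modification genes and 3 of the 6 remaining members.

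Some markers of other cells were called too. With doxorubicin and the control mimic, 15.2% of all genes were called higher and 12.3% lower. Lists this short cannot be set apart from those shares. In the remaining doxorubicin comparisons 6.87% to 9.11% of all genes were called in each direction. Without doxorubicin no mimic called over 4.50% in a direction. Fibroblast markers were above that share on the lower side, though from only 7 genes. Among 9 tested macrophage and leukocyte markers, Cd14 and Cd74 were called higher with doxorubicin and the control mimic, Cd14 with doxorubicin and each mimic, and Cd74 with the miR-222 mimic alone and both mimics alone. The summed level of that list was 20.9 to 29.1 CPM in doxorubicin with the control mimic and 14.0 to 18.6 CPM without doxorubicin, and 11.7 to 20.5 CPM in the miR-222 mimic alone. Of 5 tested endothelial markers, Kdr was called lower in all 4 doxorubicin comparisons and Vwf higher with miR-222 alone. The endothelial list summed to 29.2 to 38.6 CPM in doxorubicin with the control mimic and 44.6 to 67.0 CPM without. Of 7 fibroblast markers, 1 was higher and 1 lower with doxorubicin and the control mimic, Lum, Postn and Thy1 were lower with miR-222 alone, Dcn and Lum with miR-455 alone, and Lum, Pdgfra and Thy1 with both alone. That list summed to 16550 to 18550 CPM with miR-222 alone, 25390 to 28470 CPM with miR-455 alone, 14780 to 20380 CPM with both alone and 19180 to 29760 CPM with the control mimic alone. Of 5 smooth muscle and pericyte markers, Pdgfrb and Tagln were lower with miR-222 alone and Pdgfrb with both alone. Under doxorubicin Cnn1 was higher with the control mimic, Cnn1 and Pdgfrb with miR-222 and with both, and Acta2 was lower with miR-455. Of 8 cardiomyocyte markers, 2 were higher and 1 lower with doxorubicin and the control, miR-222 or both mimics, and 2 higher and 3 lower with miR-455. Myl2, a cardiomyocyte marker, was higher with miR-455 alone. The part of all these markers in the member results was not tested.

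**Figure D2:**
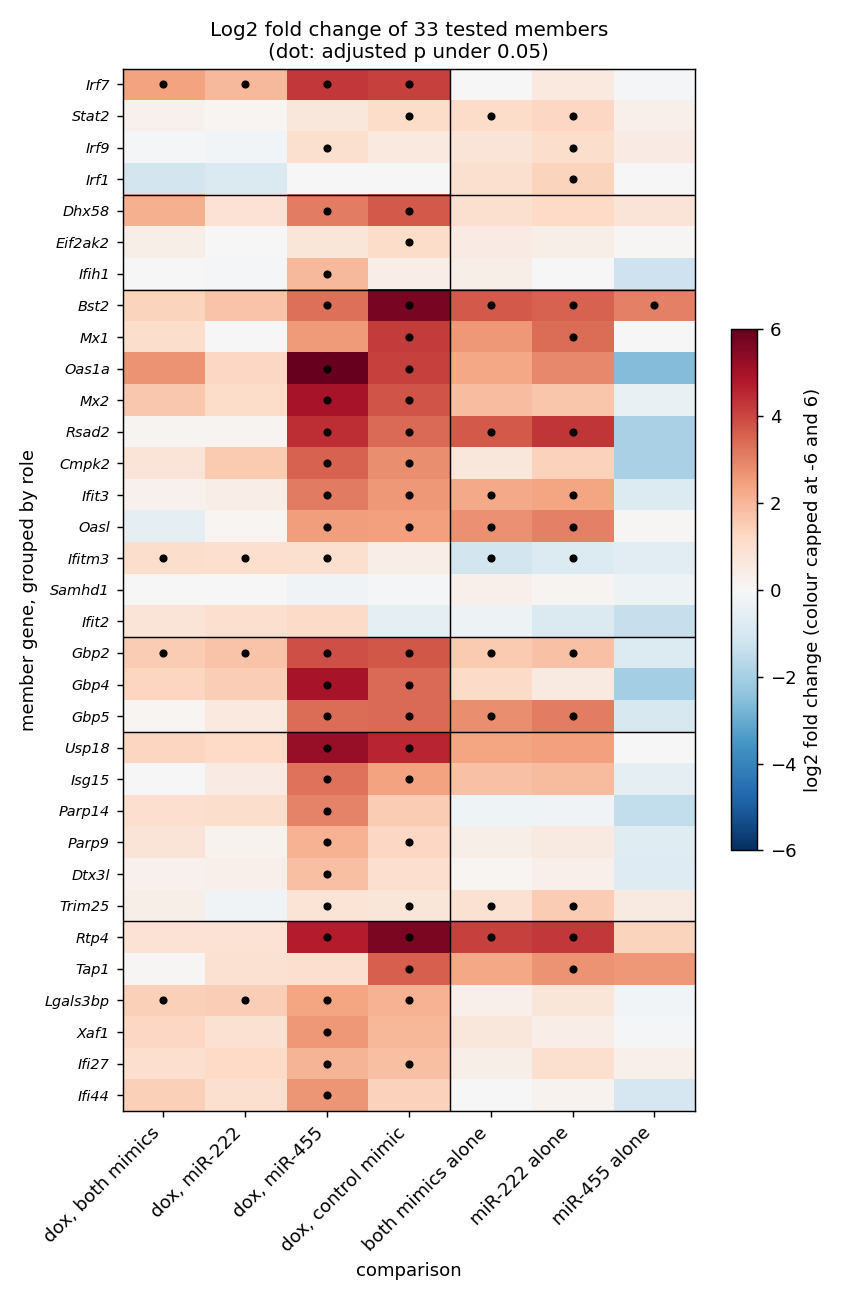
Fitted log2 fold change of the 33 tested members (rows, grouped by role) in 7 comparisons (columns): doxorubicin against none with each transfection, and each mimic against the control mimic without doxorubicin. A dot marks an adjusted p under 0.05 (edgeR); red is higher and blue lower, with colour capped at 6. The doxorubicin columns with the miR-455 and control mimics carry 26 and 23 dots, those with the miR-222 mimic and both mimics 4 each. Fitted values of Oas1a and Rtp4, at or near 0 in some groups, are no measure of size.

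Among the transcription factors, Irf7, which drives interferon gene transcription, was the member with the smallest p for doxorubicin. Irf7 had 13.2, 13.9 and 12.6 CPM with doxorubicin and the miR-222 mimic, 39.8, 37.2 and 43.3 CPM with the miR-455 mimic, 14.7, 8.09 and 13.8 CPM with both mimics and 35.7, 36.3 and 42.1 CPM with the control mimic. Without doxorubicin, Irf7 had 3.19, 2.70 and 4.36 CPM with the miR-222 mimic, 1.47, 1.21 and 3.73 CPM with the miR-455 mimic, 2.33, 2.27 and 2.29 CPM with both mimics and 2.13, 2.50 and 2.10 CPM with the control mimic. All 12 doxorubicin libraries stood above all 12 others. Among the doxorubicin libraries, the 6 with a miR-222 mimic stood below the 6 without one. The doxorubicin log2 fold change was 1.95 ± 0.33 with the miR-222 mimic (SE; edgeR adjusted p = 0.000482), 4.23 ± 0.36 with miR-455 (adjusted p = 6.32e-07), 2.41 ± 0.34 with both (adjusted p = 8.79e-05) and 4.08 ± 0.36 with the control mimic (adjusted p = 2.30e-07). No mimic alone called Irf7.

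Stat2 and Irf9 belong to the complex that reads the ISRE, and Irf1 is a transcription factor best known downstream of interferon gamma. Stat2 had 41.1, 64.9 and 45.9 CPM with doxorubicin and miR-222, 39.99, 39.1 and 41.7 CPM with miR-455, 52.9, 38.6 and 57.7 CPM with both mimics and 46.4, 34.5 and 44.9 CPM with the control mimic. Without doxorubicin, Stat2 stood at 54.1, 55.2 and 30.5 CPM with miR-222, 24.7, 20.4 and 29.3 CPM with miR-455, 49.6, 48.7 and 28.0 CPM with both and 14.8, 29.8 and 14.7 CPM with the control mimic. In the miR-222 and both-mimic groups without doxorubicin, the near-alike libraries 1 and 2 were the high ones. Stat2 rose by 1.09 ± 0.31 with doxorubicin and the control mimic (log2, SE; edgeR adjusted p = 0.0121), by 1.24 ± 0.31 with the miR-222 mimic alone (adjusted p = 0.0171) and by 1.09 ± 0.31 with both alone (adjusted p = 0.0367). Irf1 had 12.0, 17.4 and 14.0 CPM with doxorubicin and miR-222, 9.60, 11.9 and 10.9 CPM with miR-455, 12.5, 5.35 and 11.4 CPM with both and 5.86, 10.7 and 14.3 CPM with the control mimic. Without doxorubicin, Irf1 had 27.9, 27.1 and 24.6 CPM with miR-222, 15.1, 9.44 and 6.85 CPM with miR-455, 19.7, 20.8 and 21.7 CPM with both and 15.6, 9.60 and 6.48 CPM with the control mimic. Its highest 6 libraries were those with a miR-222 mimic and no doxorubicin, and it rose by 1.33 ± 0.37 with that mimic alone (adjusted p = 0.0310) while its doxorubicin log2 difference with the control mimic was -0.03 ± 0.37 (adjusted p = 0.967). Irf9 had 12.5, 9.82 and 14.6 CPM with doxorubicin and miR-222, 17.5, 19.95 and 17.3 CPM with miR-455, 13.6, 7.59 and 11.8 CPM with both and 5.35, 12.0 and 12.3 CPM with the control mimic. Without doxorubicin, Irf9 had 14.5, 13.4 and 13.4 CPM with miR-222, 9.78, 8.78 and 9.57 CPM with miR-455, 11.3, 13.2 and 9.80 CPM with both and 4.39, 9.64 and 5.81 CPM with the control mimic. The highest Irf9 levels were in the 3 libraries with doxorubicin and miR-455, a rise of 0.96 ± 0.32 over miR-455 alone (adjusted p = 0.0416) that lost its call in all 6 fits that left out a library. Irf9 was also higher with miR-222 alone, by 1.05 ± 0.32 (adjusted p = 0.0448), a call lost in 5 of 6 such fits.

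**Figure D3:**
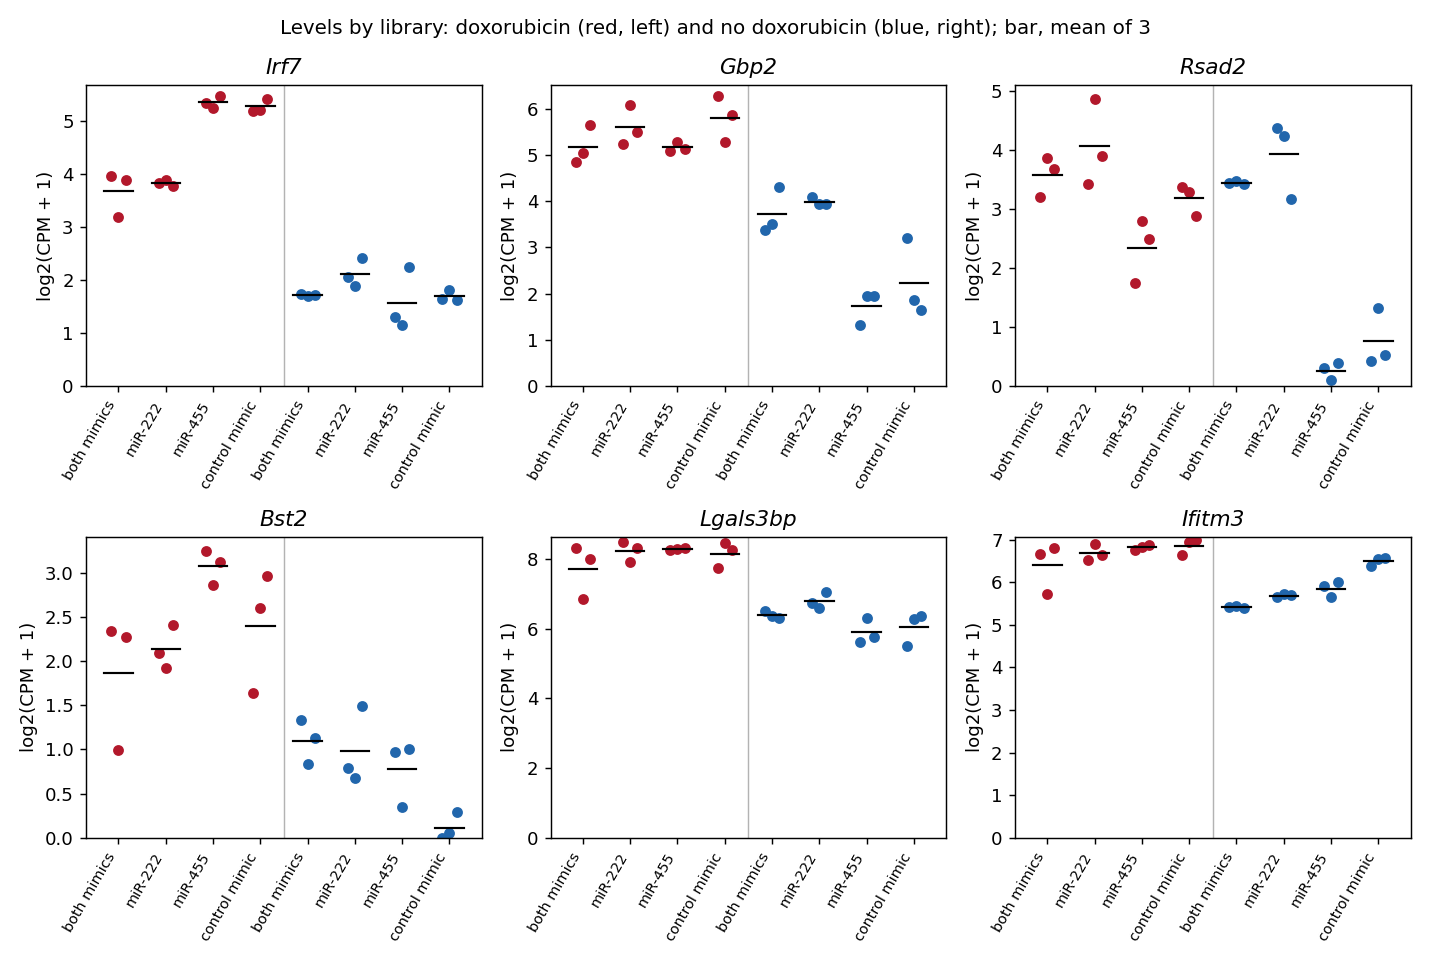
Level of 6 members in each library, as log2(CPM + 1), with doxorubicin (red, left) and without (blue, right) for 4 transfections; points are single libraries and bars the mean of 3. Irf7 lies higher in all 12 doxorubicin libraries than in the others, and lower with doxorubicin plus a miR-222 mimic (8.09 to 14.7 CPM) than with doxorubicin plus the control mimic (35.7 to 42.1 CPM); Rsad2 is also high with a miR-222 mimic and no doxorubicin.

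The nucleic acid sensors rose in part, where 15.2% of all genes were called higher with doxorubicin and the control mimic. Dhx58 (LGP2, a regulator of RNA sensing) and Eif2ak2 (PKR, the kinase that halts translation on double-stranded RNA) were the 2 of 3 tested that were called with doxorubicin and the control mimic. Dhx58 had 2.17, 3.06 and 1.97 CPM with doxorubicin and miR-222, 7.70, 9.43 and 7.67 CPM with miR-455, 5.39, 4.73 and 4.51 CPM with both and 10.2, 3.87 and 7.90 CPM with the control mimic. Without doxorubicin, Dhx58 had 1.501, 0.981 and 1.45 CPM with miR-222, 1.15, 0.692 and 1.10 CPM with miR-455, 1.44, 1.90 and 0 CPM with both and 0.767, 0.317 and 0.625 CPM with the control mimic. Every doxorubicin library was above every library without it, and the fold with the control mimic was 3.67 ± 0.80 (log2; edgeR adjusted p = 0.00200). Eif2ak2 had 58.7, 53.9 and 60.5 CPM with doxorubicin and miR-222, 73.9, 77.7 and 77.7 CPM with miR-455, 56.6, 105 and 85.1 CPM with both and 137, 76.5 and 78.3 CPM with the control mimic. Without doxorubicin, Eif2ak2 had 58.3, 60.7 and 52.3 CPM with miR-222, 54.0, 41.0 and 45.7 CPM with miR-455, 56.6, 61.0 and 75.6 CPM with both and 70.5, 37.8 and 27.9 CPM with the control mimic. The 2 control-mimic groups did not overlap for Eif2ak2, a rise of 1.10 ± 0.29 (adjusted p = 0.00840). Ifih1 (MDA5, a sensor of long double-stranded RNA) was called with doxorubicin and miR-455 (1.94 ± 0.50, adjusted p = 0.0109), and with the control mimic it differed by 0.39 ± 0.49 (adjusted p = 0.598). No sensor was called with a mimic alone.

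Of 11 tested antiviral effectors, 8 rose with doxorubicin and the control mimic (background 15.2% higher). Among them 5 rose and 1 fell with the miR-222 mimic alone (background 4.50% higher and 4.47% lower). With both mimics alone 4 rose and 1 fell (background 3.67% and 3.39%). Rsad2 (viperin, which makes a chain-terminating nucleotide) was high in every group that had doxorubicin, a miR-222 mimic or both. Rsad2 had 9.73, 28.2 and 13.9 CPM with doxorubicin and miR-222, 2.36, 5.93 and 4.62 CPM with miR-455, 8.21, 13.6 and 11.8 CPM with both and 9.39, 8.81 and 6.34 CPM with the control mimic. Without doxorubicin, Rsad2 had 19.8, 17.9 and 8.03 CPM with miR-222, 0.230, 0.0692 and 0.307 CPM with miR-455, 9.85, 10.2 and 9.80 CPM with both and 0.341, 1.51 and 0.447 CPM with the control mimic. The groups with neither doxorubicin nor a miR-222 mimic did not reach 2 CPM and overlapped none of the others. Rsad2 rose by 4.30 ± 0.60 with miR-222 alone (edgeR adjusted p = 0.000301), by 3.68 ± 0.58 with both alone (adjusted p = 0.00114), and by 3.40 ± 0.58 with doxorubicin and the control mimic (adjusted p = 0.000223). On top of miR-222, doxorubicin made a log2 difference of 0.18 ± 0.51 (adjusted p = 0.876). Its miR-455 libraries without doxorubicin lay below those of the control mimic, at -1.94 ± 0.63 (adjusted p = 0.0756), which did not pass.

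Bst2 (tetherin) holds budding virus particles to the cell surface. Bst2 had 3.26, 2.77 and 4.28 CPM with doxorubicin and miR-222, 8.47, 6.23 and 7.72 CPM with miR-455, 4.06, 0.995 and 3.81 CPM with both and 2.12, 5.05 and 6.78 CPM with the control mimic. Without doxorubicin, Bst2 had 0.732, 0.596 and 1.82 CPM with miR-222, 0.964, 0.277 and 1.01 CPM with miR-455, 1.51, 0.781 and 1.19 CPM with both and 0, 0.0397 and 0.223 CPM with the control mimic. The 3 control libraries without doxorubicin were the lowest of all 24. Against them Bst2 rose by 3.52 ± 0.85 with miR-222 (edgeR adjusted p = 0.0148), 3.04 ± 0.85 with miR-455 (adjusted p = 0.0457), 3.67 ± 0.85 with both (adjusted p = 0.0141) and 5.67 ± 0.89 with doxorubicin (adjusted p = 0.000103). Ifitm3, which blocks virus fusion in endosomes, was the one member called lower after a mimic without doxorubicin. Ifitm3 had 90.4, 119 and 98.8 CPM with doxorubicin and miR-222, 107, 113 and 117 CPM with miR-455, 99.5, 51.8 and 111 CPM with both and 98.5, 123 and 126 CPM with the control mimic. Without doxorubicin, Ifitm3 had 49.2, 51.4 and 50.9 CPM with miR-222, 59.1, 49.0 and 62.8 CPM with miR-455, 42.1, 42.4 and 41.0 CPM with both and 81.8, 92.5 and 93.3 CPM with the control mimic. No library with a mimic and no doxorubicin reached the lowest control library. The log2 difference was -0.82 ± 0.21 with miR-222 alone (adjusted p = 0.0219), -1.09 ± 0.21 with both alone (adjusted p = 0.00513) and -0.65 ± 0.21 with miR-455 alone (adjusted p = 0.0774), where the last did not pass. From those lower levels Ifitm3 rose with doxorubicin by 1.02 ± 0.21 for miR-222, 0.98 ± 0.21 for miR-455 and 1.07 ± 0.21 for the combination (adjusted p = 0.00287, 0.00327 and 0.00207). With the control mimic it differed by 0.38 ± 0.21 (adjusted p = 0.201).

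Mx1 and Mx2 are dynamin-like GTPases that trap viral nucleocapsids. Mx2 had 9.03, 4.16 and 12.4 CPM with doxorubicin and miR-222, 26.5, 26.4 and 28.7 CPM with miR-455, 12.8, 5.35 and 22.8 CPM with both and 22.5, 9.18 and 18.5 CPM with the control mimic. Without doxorubicin, Mx2 had 1.57, 1.79 and 8.46 CPM with miR-222, 0.780, 1.18 and 0.702 CPM with miR-455, 2.06, 1.34 and 9.94 CPM with both and 1.96, 1.15 and 0.581 CPM with the control mimic. In the miR-222 and both-mimic groups without doxorubicin library 3 was the high one, the reverse of Stat2. Mx2 rose by 3.76 ± 0.80 with doxorubicin and the control mimic (edgeR adjusted p = 0.00172) and by 4.93 ± 0.85 with doxorubicin and miR-455 (adjusted p = 0.000463). Mx1, whose level ran from 0 to 4.64 CPM, rose by 4.19 ± 1.01 with doxorubicin and the control mimic (adjusted p = 0.00405) and by 3.37 ± 0.97 with miR-222 alone (adjusted p = 0.0361). Ifit3, a tetratricopeptide protein that restrains viral RNA, and Oasl, a relative of the oligoadenylate synthetases, rose with doxorubicin and the control mimic (2.59 ± 0.56 and 2.44 ± 0.65) and with miR-222 alone (2.38 ± 0.55 and 3.04 ± 0.66), all past the test. Cmpk2, the nucleotide kinase encoded next to Rsad2, rose by 2.77 ± 0.82 with doxorubicin and the control mimic (adjusted p = 0.0164), while its difference with miR-222 alone was 1.38 ± 0.79 (adjusted p = 0.259). Oas1a summed to 29 counts with doxorubicin and the control mimic and 2 counts without doxorubicin, a ratio of 22.7 (95% interval 5.75 to 196, counting error only). Of the 29 counts 24 were in library 3, and without that library the ratio was 6.06 (0.993 to 63.7). With miR-455 it summed to 116 counts with doxorubicin and 0 without, at least 49.1-fold higher taking a floor of 3 counts over the group, and at least 29.1-fold without library 3 of doxorubicin. Samhd1, which degrades deoxynucleotides, and Ifit2 were called in no doxorubicin comparison and with no mimic alone.

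All 3 guanylate-binding proteins, large GTPases that attack pathogen-containing vacuoles, rose with doxorubicin and the control mimic and with doxorubicin and miR-455. Backgrounds there were 15.2% and 9.02% higher. Gbp2 had 36.4, 66.5 and 44.0 CPM with doxorubicin and miR-222, 33.1, 37.7 and 33.7 CPM with miR-455, 27.7, 31.9 and 49.2 CPM with both and 75.9, 37.6 and 57.2 CPM with the control mimic. Without doxorubicin, Gbp2 had 15.9, 14.3 and 14.3 CPM with miR-222, 1.52, 2.84 and 2.85 CPM with miR-455, 9.39, 10.3 and 18.6 CPM with both and 8.14, 2.66 and 2.14 CPM with the control mimic. Every doxorubicin library was above every other, and without doxorubicin the 6 libraries with a miR-222 mimic stood above the 6 without one. Gbp2 rose by 3.72 ± 0.46 with doxorubicin and the control mimic (edgeR adjusted p = 8.75e-06), 1.72 ± 0.42 with doxorubicin and miR-222 (adjusted p = 0.00885) and 1.78 ± 0.43 with miR-222 alone (adjusted p = 0.0148). Gbp5 had 10.1, 12.4 and 11.5 CPM with doxorubicin and miR-222, 4.42, 3.49 and 5.87 CPM with miR-455, 7.78, 4.54 and 7.73 CPM with both and 15.3, 4.38 and 8.46 CPM with the control mimic. Without doxorubicin, Gbp5 had 9.19, 8.83 and 4.50 CPM with miR-222, 0.184, 0.622 and 0.527 CPM with miR-455, 3.53, 3.16 and 11.9 CPM with both and 0.724, 1.27 and 0.670 CPM with the control mimic. All 6 libraries with a miR-222 mimic and no doxorubicin stood above the control and miR-455 libraries. It rose by 3.39 ± 0.58 with doxorubicin and the control mimic (adjusted p = 0.000257) and by 3.07 ± 0.58 with miR-222 alone (adjusted p = 0.00338). Gbp4 was scarcer, with 1.94, 1.73 and 2.58 CPM for doxorubicin and miR-222, 4.06, 4.34 and 3.54 CPM for miR-455, 2.74, 0 and 5.68 CPM for both and 7.87, 5.62 and 3.36 CPM for the control mimic. Without doxorubicin, Gbp4 had 0.220, 0.490 and 1.56 CPM with miR-222, 0, 0.311 and 0.0439 CPM with miR-455, 0.155, 0.521 and 2.84 CPM with both and 0.596, 0.714 and 0.268 CPM with the control mimic. Library 2 of doxorubicin with both mimics held no Gbp4 count. The Gbp4 call was lost in all 6 fits that left out a library with the control mimic, and in 2 of 6 with miR-455.

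Of the 6 genes of ubiquitin-like and ADP-ribose modification, 4 rose with doxorubicin and the control mimic (background 15.2% higher). All 6 rose with doxorubicin and miR-455 (background 9.02%). Only 1 rose with miR-222 alone (background 4.50%), too few to set apart from that share. Isg15, the ubiquitin-like protein itself, had 7.61, 15.01 and 6.47 CPM with doxorubicin and miR-222, 9.91, 12.6 and 13.5 CPM with miR-455, 7.52, 0.809 and 10.9 CPM with both and 9.89, 6.65 and 13.3 CPM with the control mimic. Without doxorubicin, Isg15 had 5.49, 6.69 and 8.35 CPM with miR-222, 0.964, 1.90 and 0.878 CPM with miR-455, 4.97, 4.72 and 9.20 CPM with both and 2.60, 1.71 and 1.25 CPM with the control mimic. The control-mimic groups did not overlap, and neither did the miR-222 and control groups without doxorubicin, but Isg15 passed for doxorubicin (2.42 ± 0.62, edgeR adjusted p = 0.00650) and not for miR-222 alone (1.88 ± 0.61, adjusted p = 0.0565). Usp18, which strips Isg15 from proteins and dampens receptor signalling, had 4.30, 1.96 and 5.90 CPM with doxorubicin and miR-222, 10.8, 13.8 and 11.2 CPM with miR-455, 6.24, 0 and 5.92 CPM with both and 7.17, 4.95 and 11.1 CPM with the control mimic. Without doxorubicin, Usp18 had 0.915, 1.61 and 2.80 CPM with miR-222, 0.230, 0.346 and 0.351 CPM with miR-455, 1.24, 0.707 and 3.02 CPM with both and 0, 0.714 and 0.223 CPM with the control mimic. It rose by 4.59 ± 1.15 with doxorubicin and the control mimic (adjusted p = 0.00578), and library 2 of doxorubicin with both mimics was again at 0.

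Trim25 is the ubiquitin ligase that activates RIG-I. Trim25 had 29.5, 36.7 and 34.8 CPM with doxorubicin and miR-222, 32.96, 36.3 and 35.5 CPM with miR-455, 34.1, 27.3 and 34.3 CPM with both and 19.4, 22.8 and 23.6 CPM with the control mimic. Without doxorubicin, Trim25 had 45.1, 45.4 and 25.0 CPM with miR-222, 20.9, 16.98 and 20.7 CPM with miR-455, 30.0, 29.8 and 15.8 CPM with both and 11.5, 11.7 and 16.5 CPM with the control mimic. Its 2 highest libraries were the near-alike pair of miR-222 alone. Trim25 rose by 1.54 ± 0.26 with miR-222 alone (edgeR adjusted p = 0.00148) and by 0.73 ± 0.26 with doxorubicin and the control mimic (adjusted p = 0.0403). Before scaling, its counts with the control mimic summed to 1014 with doxorubicin and 935 without, so the latter rise leans on the scaling. Parp9, a partner of the ubiquitin ligase Dtx3l, had 21.8, 16.3 and 21.1 CPM with doxorubicin and miR-222, 28.9, 29.1 and 33.2 CPM with miR-455, 23.0, 29.6 and 22.6 CPM with both and 35.3, 20.9 and 26.9 CPM with the control mimic. Without doxorubicin, Parp9 had 15.4, 15.4 and 21.1 CPM with miR-222, 4.36, 10.6 and 6.58 CPM with miR-455, 10.1, 10.9 and 23.6 CPM with both and 16.1, 11.9 and 7.28 CPM with the control mimic. The widest gap for Parp9 was between the miR-455 groups, a rise of 2.08 ± 0.37 (adjusted p = 0.000571), against 1.24 ± 0.36 with the control mimic (adjusted p = 0.0140). Its neighbours Dtx3l and Parp14, an ADP-ribosyltransferase, were called with doxorubicin and miR-455 (1.81 ± 0.51 and 2.99 ± 0.67) and differed by 1.02 ± 0.50 and 1.51 ± 0.63 with the control mimic, where neither passed.

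Of the 6 remaining members, 4 rose with doxorubicin and the control mimic (background 15.2% higher). Lgals3bp, a secreted galectin-binding glycoprotein, had 358, 239 and 317 CPM with doxorubicin and miR-222, 302, 309 and 318 CPM with miR-455, 315, 114 and 254 CPM with both and 213, 352 and 304 CPM with the control mimic. Without doxorubicin, Lgals3bp had 106, 96.1 and 131 CPM with miR-222, 47.9, 78.0 and 53.0 CPM with miR-455, 90.5, 81.4 and 77.6 CPM with both and 44.6, 76.0 and 81.0 CPM with the control mimic. Library 2 of doxorubicin with both mimics was the only doxorubicin library within the range of those without. Lgals3bp rose by 1.46 ± 0.31 with miR-222, 2.38 ± 0.32 with miR-455, 1.45 ± 0.31 with both and 2.11 ± 0.32 with the control mimic (edgeR adjusted p = 0.00325, 4.60e-05, 0.00337 and 6.70e-05). Tap1 carries peptides to MHC class I. Tap1 had 55.2, 35.7 and 41.2 CPM with doxorubicin and miR-222, 41.9, 44.4 and 44.7 CPM with miR-455, 35.1, 9.39 and 13.2 CPM with both and 15.6, 61.4 and 52.7 CPM with the control mimic. Without doxorubicin, Tap1 had 26.5, 25.6 and 17.2 CPM with miR-222, 28.7, 9.72 and 27.8 CPM with miR-455, 25.5, 27.4 and 1.69 CPM with both and 1.02, 3.61 and 6.21 CPM with the control mimic. All 3 mimic groups without doxorubicin held libraries at or above 25 CPM and the control none above 7 CPM. Tap1 rose by 3.58 ± 0.80 with doxorubicin and the control mimic (adjusted p = 0.00247) and by 2.67 ± 0.77 with miR-222 alone (adjusted p = 0.0361).

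Ifi27, a small hydrophobic membrane protein, had 87.0, 74.0 and 85.3 CPM with doxorubicin and miR-222, 78.3, 94.4 and 104 CPM with miR-455, 82.2, 24.1 and 32.3 CPM with both and 10.4, 87.9 and 94.3 CPM with the control mimic. Without doxorubicin, Ifi27 had 35.95, 30.1 and 42.0 CPM with miR-222, 25.1, 16.0 and 27.0 CPM with miR-455, 27.4, 28.1 and 13.6 CPM with both and 10.2, 14.6 and 29.8 CPM with the control mimic. Library 1 of doxorubicin with the control mimic, the library with 38.2% mitochondrial counts, lay at the level of the untreated controls, so the groups overlapped, with a fold of 1.82 ± 0.57 (edgeR adjusted p = 0.0229). Rtp4, a receptor-transporting protein with antiviral activity, summed to 111 counts with doxorubicin and the control mimic and 3 counts without doxorubicin, a ratio of 58.0 (19.3 to 285), which was 38.0 without library 3 of doxorubicin and 119 without library 3 of the control without doxorubicin. Rtp4 libraries held 1.47, 1.73 and 1.79 CPM with doxorubicin and miR-222, 2.57, 3.59 and 3.43 CPM with miR-455, 2.78, 0 and 1.76 CPM with both and 1.62, 1.60 and 3.98 CPM with the control mimic. Without doxorubicin, Rtp4 had 0.732, 0.596 and 1.38 CPM with miR-222, 0.138, 0 and 0.219 CPM with miR-455, 0.737, 0.446 and 1.28 CPM with both and 0, 0.0397 and 0.0893 CPM with the control mimic. The miR-222 mimic alone held 75 counts, a ratio of 21.3 to the control (7.02 to 106), and both mimics alone 59 counts, a ratio of 18.8 (6.11 to 93.6). Without control library 3 these were 43.8 and 38.6. Xaf1, known for promoting apoptosis, and Ifi44 were called with doxorubicin and miR-455 (2.62 ± 0.89 and 2.67 ± 0.59) and with no other transfection, and the Xaf1 call was lost in all 6 fits that left out a library. The Oas, Gbp, Mx, Ifit, Ifitm and Ifi27 families have near-identical relatives whose reads the counting could split, so levels of single genes in them are uncertain. Parp9 and Dtx3l start close together on opposite strands, and whether that touched their counts was not tested.

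Leaving out libraries singly tells which of these calls hold without a given library. A call lost whichever library was left out does not rest on 1 library. Where a near-alike library stayed in, a kept call says little. With doxorubicin and the control mimic, 15 of the 23 calls were kept in every such fit, and Cmpk2, Eif2ak2, Gbp4, Ifi27, Oas1a, Parp9, Stat2 and Trim25 each lost theirs in at least 1, Gbp4 in all 6 and Ifi27, Oas1a and Trim25 in 4, with adjusted p up to 0.366 for Oas1a without library 3 of doxorubicin. With miR-455, 18 of 26 were kept, and Dtx3l, Gbp4, Ifi27, Ifih1, Irf9, Oasl, Trim25 and Xaf1 were lost in at least 1 fit, Irf9, Trim25 and Xaf1 in all 6 and Ifi27 in 4 (adjusted p up to 0.133, Xaf1). For miR-222 alone 4 of 14 were kept in every fit: Rsad2, Gbp5, Oasl and Trim25. Its count of 14 fell to 5 without library 1 or library 2 of that group, to 8 without control library 1 and to 7 without control library 2. For both mimics alone 3 of 10 were kept, Rsad2, Gbp5 and Ifitm3, and the count fell to 4 without library 1 or 2 of that group or control library 2, 6 without control library 1 and 5 without control library 3. The lone miR-455 call, Bst2, was lost without control library 1 or 2 or without library 1 or 3 of that group, and without control library 3 there were 3 calls and without miR-455 library 2 there were 6 (2 higher, 4 lower). Doxorubicin with both mimics reached 10 calls without library 3 of both mimics alone, a library with 24.9% mitochondrial counts, and Gbp2 was lost there without library 3 of doxorubicin with both mimics or library 1 or 2 of both mimics alone. Without the 4 libraries with the fewest detected genes, doxorubicin called 8 members with miR-222, 28 with miR-455, 19 with both mimics and 25 with the control mimic. The share of all genes called was not taken in that fit.

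Doxorubicin was set against each mimic alone by testing the doxorubicin libraries with the control mimic directly against the mimic libraries without doxorubicin. Against the miR-222 mimic alone, 7 members were higher and 2 lower with doxorubicin (background 13.7% higher and 11.7% lower). Counts this small cannot be set apart from those shares. The 7 were Irf7, Dhx58, Mx2, Bst2, Ifitm3, Gbp2 and Lgals3bp, and the 2 lower were Irf1 and Trim25. Irf7 was 3.48 ± 0.35 higher with doxorubicin (log2, SE; edgeR adjusted p = 8.44e-07), and Irf1 differed by -1.36 ± 0.37 (adjusted p = 0.0106) and Trim25 by -0.81 ± 0.26 (adjusted p = 0.0245). Rsad2 differed by -0.90 ± 0.52 (adjusted p = 0.219), Gbp5 by 0.32 ± 0.52 (adjusted p = 0.705) and Ifit3 by 0.22 ± 0.52 (adjusted p = 0.801). None of these passed, which does not show that the levels are alike. The count of 9 fell to 5 without library 1 or 2 of miR-222 alone, and was 3 with the near-alike libraries summed (Irf7, Gbp2 and Ifitm3). Over all 14303 genes that summed fit called 884 higher and 717 lower, so its member count lay near the share of all genes too. Bst2, Dhx58, Mx2 and Trim25 each lost their call in at least 1 fit that left out a library.

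Against the miR-455 mimic alone, 24 members were higher with doxorubicin and 0 lower (background 13.7% and 12.0%), with a median difference of 2.37. The largest among members counted above the floor in both groups were Gbp4 at 5.42 ± 1.37 and Rsad2 at 5.34 ± 0.66 (edgeR adjusted p = 0.00648 and 9.04e-06). Oas1a summed to 29 counts with doxorubicin and 0 with miR-455 alone, at least 15.7-fold higher, and at least 4.18-fold without library 3 of doxorubicin. The count was 13 with the near-alike libraries summed, where 815 of 14303 genes were called higher and 726 lower. Leaving out 1 library lost Bst2, Dtx3l, Eif2ak2, Ifih1, Oas1a or Oasl in at least 1 fit. Against both mimics alone, 7 members were higher with doxorubicin and 1 lower (background 14.1% and 13.5%), the 7 being Irf7, Dhx58, Bst2, Ifitm3, Gbp2, Parp14 and Lgals3bp and the lower one Irf1. These counts, too, cannot be set apart from the share of all genes. That count of 8 was 5 without library 1 or 2 of both mimics alone and 13 without its library 3. It was 4 with the near-alike libraries summed (Irf7, Gbp2, Ifitm3 and Lgals3bp), where 900 of 14303 genes were called higher and 967 lower. Leaving out 1 library lost Bst2, Irf1 or Parp14 in at least 1 fit. Irf7 was called higher with doxorubicin than with every mimic alone in each fit that left out a library and in the summed fit. These comparisons all share the doxorubicin libraries, which also gave the doxorubicin effect with the control mimic, so they are not separate support.

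**Figure D4:**
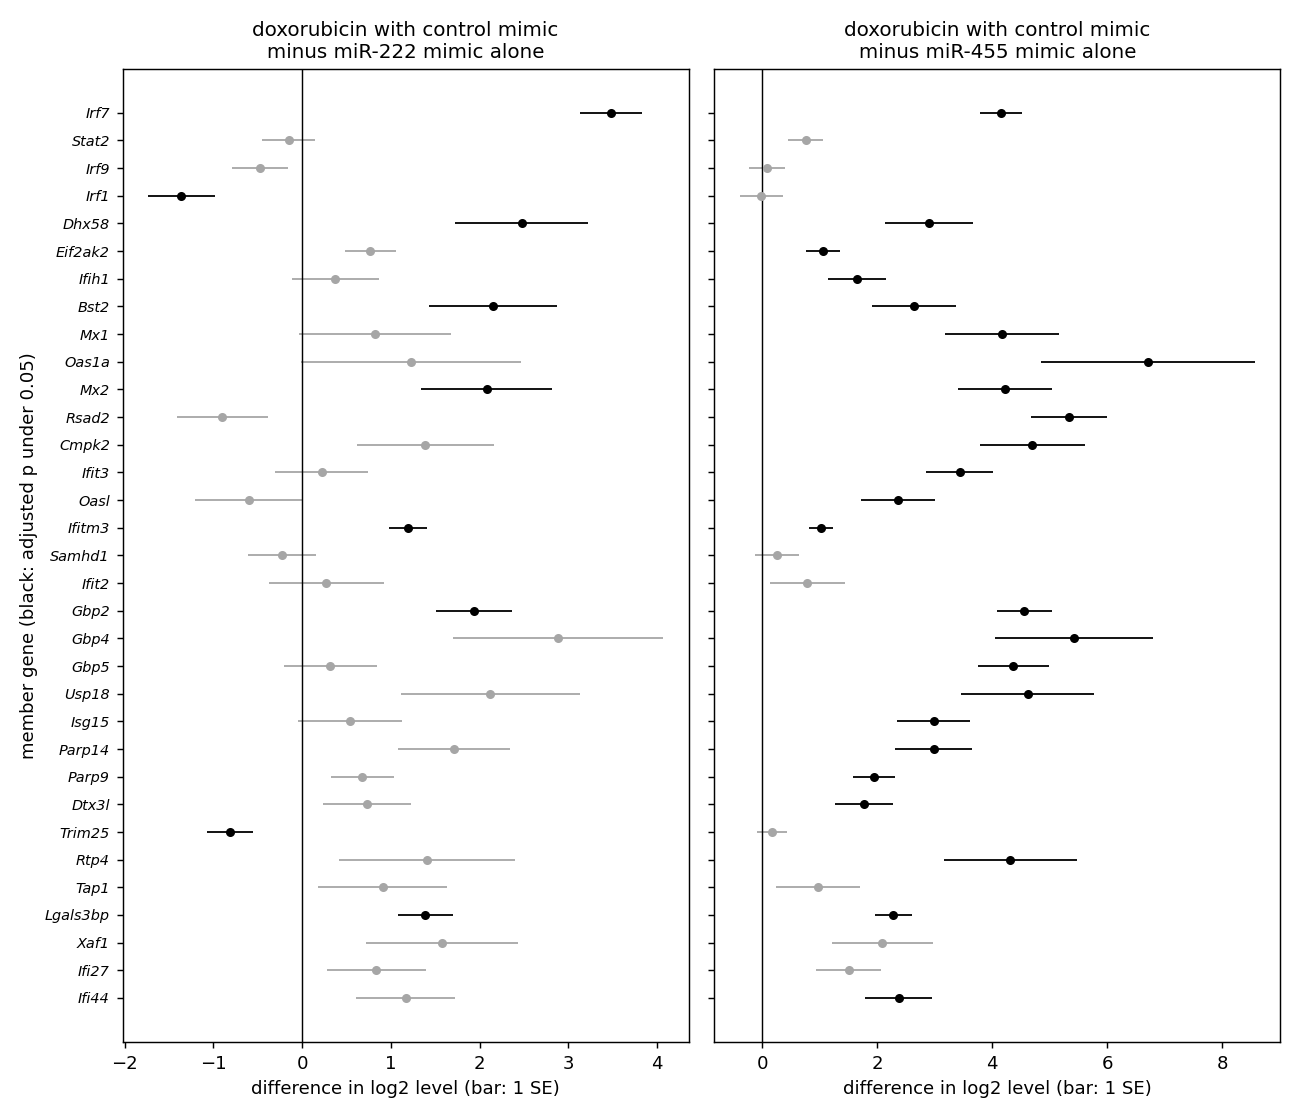
Difference in log2 level of the 33 tested members between doxorubicin with the control mimic and the miR-222 mimic alone (left) or the miR-455 mimic alone (right); points are fitted differences, bars 1 SE, black for an adjusted p under 0.05 (edgeR), and values right of 0 are higher with doxorubicin. On the left 9 points are black, 7 of them right of 0; on the right 24 are black, all right of 0.

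Under doxorubicin few members were called for a mimic, near the small share of all genes called. A lack of calls does not show that members were unchanged. Against doxorubicin with the control mimic, the miR-222 mimic called 0 higher and 1 lower (background 1.59% and 2.36%), both mimics 0 higher and 1 lower (background 2.78% and 2.78%), and the miR-455 mimic 0 and 0 (background 0.657% and 1.85%; before adjustment 2 passed as higher and 0 as lower at p under 0.05, and DESeq2 called 0). The lower member was Irf7 each time, by -1.52 ± 0.32 with miR-222 (log2, SE; edgeR adjusted p = 0.00859) and -1.64 ± 0.32 with both (adjusted p = 0.00386). Both comparisons share the control libraries. The calls held with the near-alike libraries summed (adjusted p = 0.0366 with miR-222 and 0.0192 with both), and the first was lost without library 3 of doxorubicin with miR-222 (adjusted p = 0.0555).

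Whether a mimic changed the doxorubicin response was tested as an interaction. For miR-222 it called 0 members (background 0.00699% higher and 0.0419% lower), with 1 higher and 18 lower before adjustment (p under 0.05) and 5 lower by DESeq2. For both mimics it called 0 (background 0.00699% and 0.0489%), with 1 higher and 12 lower unadjusted and 9 lower by DESeq2. For miR-455 it called 0 (background 0% and 0%), with 1 higher and 2 lower unadjusted and 0 by DESeq2. For miR-222 set against miR-455 it called 0 (background 0% and 0%), with 0 higher and 20 lower unadjusted and 4 lower by DESeq2. The 4, 26, 4 and 23 calls of the single doxorubicin comparisons were not shown to differ between transfections by the main test. The smallest p in the miR-222 interaction was that of Irf7, a log2 difference of -2.13 ± 0.46 (unadjusted p = 0.000159, edgeR adjusted p = 0.0922), followed by Rsad2 at -3.22 ± 0.76 (adjusted p = 0.103). With the near-alike libraries summed, the interactions of miR-222, both mimics, miR-455 and miR-222 against miR-455 called 0 as well, with 10, 12, 0 and 9 lower and none higher unadjusted. A fit of only the groups compared called 6 lower for miR-222 against miR-455. Without the 4 libraries with the fewest detected genes the miR-222 interaction called 5 lower (Dhx58, Eif2ak2, Gbp2, Irf7 and Tap1), that of both mimics 2 higher and 7 lower, and that of miR-222 against miR-455 7 lower. Without library 3 of both mimics alone, the interaction of both mimics called 5, and without library 3 of miR-455 alone, that of miR-222 against miR-455 called 1. The share of all genes called was not taken by DESeq2, in the fit of only the groups compared or in those without libraries.

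**Figure D5:**
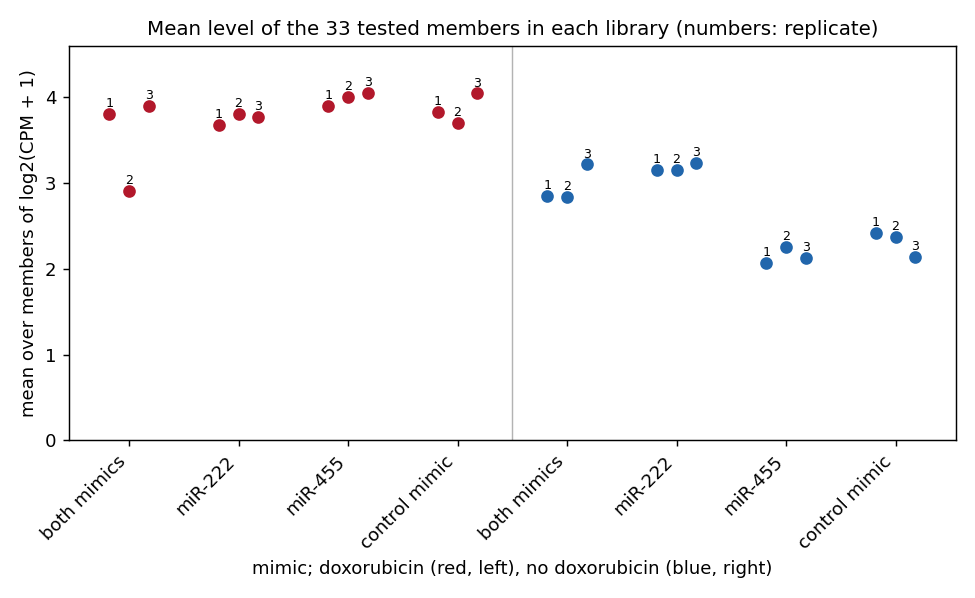
Mean over the 33 tested members of log2(CPM + 1) in each library, numbered by replicate, with doxorubicin (red, left) and without (blue, right), as a description with no test. The doxorubicin libraries lie between 2.91 and 4.05; without doxorubicin, the miR-222 and both-mimic libraries (2.84 to 3.24) lie above the miR-455 and control libraries (2.07 to 2.42).

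Averaged over the 33 tested members, the level in log2(CPM + 1) was 3.75 ± 0.07 with doxorubicin and miR-222, 3.98 ± 0.08 with miR-455, 3.54 ± 0.55 with both mimics and 3.86 ± 0.17 with the control mimic (SD, n = 3 each). Without doxorubicin the average was 3.18 ± 0.05 for miR-222, 2.15 ± 0.10 for miR-455, 2.97 ± 0.22 with both and 2.31 ± 0.15 with the control mimic. Among the doxorubicin groups miR-222 and miR-455 did not overlap, while the both-mimic and control groups overlapped every other. Without doxorubicin the miR-222 and both-mimic groups overlapped, and so did the miR-455 and control groups. The large SD of doxorubicin with both mimics came from library 2, at 2.91, which was the lowest of its group for 26 of 33 members.

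The rest of the pathway was read from lists of 82 genes, of which 78 were in the table and 61 tested. Interferons themselves were at or near 0: of 11 listed ligands 10 were in the table and none was tested, Ifnb1, Ifna2, Ifna4, Ifna5, Ifna11, Ifng and Ifnk were at 0 in all 24 libraries, and Ifne, Ifnl1 and Ifnl3 held at most 4, 1 and 2 counts in a library. A group at 0 allows up to 3 counts over its libraries. Receptors fell in part. With doxorubicin and the control mimic, 3 of 6 were lower, where 12.3% of all genes were: Ifnar1, a chain of the type I receptor, by -0.75 ± 0.17, Ifngr2, a chain of the interferon gamma receptor, by -1.52 ± 0.36, and Ifnlr1, a chain of the lambda receptor, by -1.78 ± 0.42 (log2, SE; edgeR adjusted p = 0.00279, 0.00376 and 0.00366). Ifnar1 averaged 22.9 ± 3.45 CPM with doxorubicin and 38.5 ± 3.14 CPM without (SD, n = 3 each), and the groups did not overlap. Under doxorubicin Ifnar1 and Ifngr2 were higher with the miR-222 mimic than with the control mimic, by 0.87 ± 0.17 and 1.64 ± 0.36 (adjusted p = 0.00454 and 0.0120), and with both mimics by 0.70 ± 0.17 and 1.76 ± 0.36 (adjusted p = 0.0183 and 0.00545).

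Of 5 kinases and STATs, Stat3, a cytokine-activated transcription factor, was lower with doxorubicin in all 4 transfections, by -1.30 ± 0.18 with miR-222, -1.47 ± 0.19 with miR-455, -0.93 ± 0.18 with both and -1.65 ± 0.19 with the control mimic (edgeR adjusted p = 0.000110, 2.54e-05, 0.00168 and 3.12e-06). Of 13 sensing genes upstream of interferon, 4 passed with doxorubicin and the control mimic, 2 in each direction, near the background of 15.2% higher and 12.3% lower: Ddx58, which encodes the RNA sensor RIG-I, rose by 1.11 ± 0.32 and the adaptor Traf3 by 0.94 ± 0.19, while the adaptor Mavs differed by -0.73 ± 0.24 and Traf6 by -1.01 ± 0.26 (adjusted p = 0.0139, 0.00129, 0.0288 and 0.00675). Ddx58 also rose with miR-222 alone, by 1.51 ± 0.32, and with both mimics alone, by 1.67 ± 0.32 (edgeR adjusted p = 0.00759 and 0.00455). Those calls were lost with the near-alike libraries summed, where 0 of the 13 sensing genes were called for either. Of 7 inhibitors 1 passed with doxorubicin and the control mimic, Pias1 at -0.87 ± 0.30, again near the background.

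Class I antigen processing moved in 6 of 10 genes with doxorubicin and the control mimic, all higher (background 15.2%), and in 5 with the near-alike libraries summed. B2m, the invariant chain of MHC class I, rose by 1.81 ± 0.39, and the proteasome activator Psme1 by 1.84 ± 0.19 (edgeR adjusted p = 0.00199 and 8.70e-07). The median of the 10 was 1.77. With miR-222 alone 4 of the 10 were higher (background 4.50%; 0 with the near-alike libraries summed, where 5 passed before adjustment), with miR-455 alone and with both mimics alone 0 (edgeR). At an unadjusted p under 0.05, 2 of the 10 were higher and 1 lower with miR-455 alone, and 2 higher and 0 lower with both mimics alone. Of 20 other interferon-responsive genes, 8 rose with doxorubicin and the control mimic, 2 with doxorubicin and miR-222, 11 with doxorubicin and miR-455 and 4 with doxorubicin and both, and none fell. The backgrounds were 15.2%, 7.76%, 9.02% and 7.85% higher, so the 2 of 20 lay near the share of all genes. With the near-alike libraries summed the counts were 4, 1, 1 and 1. The chemokine Cxcl10 averaged 19.6 ± 6.97 CPM with doxorubicin and 2.04 ± 0.465 CPM without doxorubicin, both with the control mimic (SD, n = 3 each). Without doxorubicin it averaged 8.43 ± 2.09 CPM with miR-222, 8.29 ± 3.96 CPM with both and 0.768 ± 0.482 CPM with miR-455. Cxcl10 rose by 3.26 ± 0.50 with doxorubicin and the control mimic (edgeR adjusted p = 8.49e-05). It rose by 2.04 ± 0.48 with miR-222 alone and by 2.02 ± 0.48 with both alone (adjusted p = 0.0133 and 0.0161). These calls of the mimics alone were lost with the near-alike libraries summed, where 0 of the 20 genes were called for either. Oasl2, a further oligoadenylate synthetase relative, rose with doxorubicin in all 4 transfections, by 1.81 ± 0.56 with miR-222, 4.48 ± 0.63 with miR-455, 2.32 ± 0.57 with both and 2.48 ± 0.57 with the control mimic.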

How the data were processed

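The authors deposited a gene-level table of expected counts for 24 libraries, and every column was matched to a sample by its name. Salmon and DESeq2 were used with Rnor_6.0, per the submitters' processing notes; not given in the sources used here are their versions, the step each served and the filter behind the table. Of the deposited expected counts 7.35% were not whole, and all were rounded. A symbol-level estimate can split reads between near-identical genes, which touches several families here.

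Genes were filtered with filterByExpr by group (14303 kept), scaled by TMM and tested with edgeR 4.0.16 in R 4.3.3 (quasi-likelihood test, means model of all 24 libraries, Benjamini-Hochberg over all genes tested, called at an adjusted p under 0.05). Each SE was taken as the absolute log2 fold change over the square root of F. The procedure was tested on simulated data, where 131 of 200 genes changed 4-fold were called (65.5%), with 9 false calls among 14303 genes. The simulated libraries were independent, with no near-alike ones. In groups at or near 0, folds use the summed counts and a floor of 3 counts over the group, with 95% exact intervals, which cover counting error only. Members and gene lists were chosen with earlier results of these data known. Every member could be named; values in all libraries are given for up to 4 members per role called with doxorubicin and the control mimic or with a mimic alone, smallest p first, plus Irf7 and Isg15. Alternatives were DESeq2 1.42.0, DESeq2 size factors, a filter of 1 CPM in 3 libraries, none at all, fits of only the groups compared, a replicate block, leaving out libraries, and, chosen after seeing the data, near-alike libraries summed. Promoter and microRNA sequences are from RefSeq tables and were matched by symbol or name. One of the listed pathway genes is not reported here.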

Additional observations from a re-analysis of the deposited data

How the results depend on the processing

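Counts of members called are the sum of both directions, in the order doxorubicin with miR-222, with miR-455, with both, with the control mimic, then each mimic alone. Shares of all genes called were taken only for the main and the summed fits. The main counts were 4, 26, 4 and 23 for doxorubicin and 14, 1 and 10 for miR-222, miR-455 and both alone. DESeq2 moved by over 1.5 times doxorubicin with both mimics (7), miR-455 alone (4), doxorubicin against both mimics alone (14) and the interactions of miR-222 (5), both mimics (9) and miR-222 against miR-455 (4). Fitting only the groups compared gave 11 for doxorubicin with miR-222, 0 with both and 14 with the control mimic, 3, 0 and 0 for miR-222, miR-455 and both alone, 0 for both mimics under doxorubicin, 4 for doxorubicin against both mimics alone and 6 for the interaction of miR-222 against miR-455. With no filter on low counts miR-455 alone gave 0. Without the 4 libraries with the fewest detected genes the counts were 8 for doxorubicin with miR-222, 19 with both, 4 for miR-455 alone, 2 for miR-222 under doxorubicin, 5, 9 and 7 for the interactions of miR-222, both mimics and miR-222 against miR-455, and 17 for doxorubicin against miR-222 alone and against both alone. With near-alike libraries summed, doxorubicin gave 1, 3 and 1 for miR-222, miR-455 and both, the mimics alone 1, 0 and 2, and doxorubicin against miR-222, miR-455 and both alone 3, 13 and 4.

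Whether same-numbered libraries deviate together was checked for each pair of groups. In 0 of the 13 pairs compared here were all 3 correlations over 0.1 (0.049 to 0.615 for doxorubicin against none with the control mimic), so the numbers were not taken to pair the samples. The miR-222 and both-mimic groups without doxorubicin, not compared with each other, had 0.383 to 0.456. With a replicate block both mimics alone gave 6 and all other counts stayed within 1.5 times. Leaving out 1 library at a time gave 17 to 22 for doxorubicin with the control mimic, 4 with miR-222, 18 to 23 with miR-455 and 3 to 10 with both; 5 to 11, 0 to 6 and 4 to 10 for miR-222, miR-455 and both alone; 0 to 1, 0 and 1 for these under doxorubicin; 0, 0 and 0 to 5 for their interactions; 5 to 8, 21 to 24 and 5 to 13 for doxorubicin against each alone; and 0 to 1 for miR-222 against miR-455.

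Over 125 called member results and all alternatives, 1427 kept their call, 320 lost it and 0 changed sign. Members with few counts, such as Oas1a, Oas2, Rtp4 and Zbp1, limit what these libraries can show; the cause of the changes between fits was not tested.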

Other observations

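Single libraries departed from their group across the set. Library 2 of doxorubicin with both mimics was lowest of its group for 26 of 33 tested members, and held no count of Gbp4, Usp18 or Rtp4, against 2.74 and 5.68 CPM of Gbp4 in libraries 1 and 3. Library 3 of both mimics alone was highest of its group for 19 members and had 24.9% mitochondrial counts, against 8.16% and 6.82% in libraries 1 and 2. Within miR-222 alone and both mimics alone, Stat2, Trim25 and Oasl were higher in the near-alike libraries 1 and 2 than in library 3, while Mx2, Usp18 and Gbp4 were higher in library 3.

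Tap1 and Ifi27 set library 1 of doxorubicin with the control mimic apart. Tap1 stood at 15.6 CPM there and at 61.4 and 52.7 CPM in libraries 2 and 3, and Ifi27 at 10.4 CPM there and at 87.9 and 94.3 CPM in the others, while Gbp2 and Eif2ak2 were highest in that library. That library had 38.2% mitochondrial counts and 11469 genes at 10 or more counts, the fewest of all 24.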
